A study of Mus musculus with 6 samples.

Results

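Synaptic vesicle and exocytosis genes encode the machinery by which a nerve ending fills transmitter vesicles, docks them at the membrane and fuses them with it. A set of 40 such genes was taken by symbol from a deposited table of 24421 gene symbols, and all 40 were in it. They are 7 genes of SNARE proteins and of their assembly and disassembly, 10 genes of synaptotagmins and Doc2, 8 of synapsins and vesicle membrane proteins, 8 of Rab3 proteins and the active zone, 4 of complexins and synucleins, and 3 of vesicular glutamate transporters. RNA sequencing had been done on 6 mouse neurofibromas, tumours of the peripheral nerve sheath, on the C57BL/6J strain background. All 6 carried floxed Nf1 (Nf1fl/fl) and DhhCre, a Cre recombinase under the Dhh promoter, which is active in developing Schwann cells. Deletion of floxed Nf1 by this Cre is therefore aimed at Schwann cells, which share the tumour with neurons, macrophages and fibroblasts. The group miR155KO_Nf1KO (tumours MiRNC149, MiRNC640 and MiRNC670) was labelled Mir-155 KO in addition, and the group Nf1KO (tumours Nf803, Nf809 and Nf827) was labelled Nf1 -/- alone. Which cells of the tumours had lost Nf1 or miR-155 was not tested here. No drug was given, and the age of the mice is not given in the sources used here. Whether the 6 tumours are from 6 different mice is not stated in the labels. The p-values therefore describe the spread among these samples, part of which may be technical.

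Fusion of a vesicle is driven by SNARE proteins, of which synaptobrevin sits on the vesicle and syntaxin and SNAP-25 sit on the plasma membrane. Synaptotagmins sense calcium, complexins hold and release the SNARE bundle, and large scaffolds such as bassoon and piccolo mark the release site. The mRNAs are made in neuronal cell bodies and some are carried into axons. Peripheral nerve tumours can hold both axons and ganglion cells beside the Schwann cells.

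The study asked which transcripts are targets of miR-155, so the microRNA and its sites in the members are shown first. The mature mouse sequence is that of RefSeq on GRCm38.p6 (chr16:84714143-84714165, plus strand), with the seed, bases 2 to 8, in capitals.
mmu-miR-155-5p: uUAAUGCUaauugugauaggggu
A target pairs with the seed through the DNA letters AGCATTA, which a following A extends to the 8-base site AGCATTAA, and the shorter form GCATTAA was also searched. Of the 40 members, 5 had such a site in their longest annotated 3′ UTR in GENCODE M21 on GRCm38, and only Stxbp5l had the 8-base form. Each site is shown on the strand of its gene with the matching letters in capitals. Coding regions, other isoforms and still shorter matches were not searched, so other members may hold sites too, and binding was not tested.
Stxbp5l: gtacaaacaaaAGCATTAAtgcacttaatg
Syt9: ccgagggatgcAGCATTAcagcagatgtt
Rab3c: gctggggcgggAGCATTAcgtattgtgta
Rims2: tttttagcaccAGCATTAgtcatacaggg
Slc17a8: gctggatcgtgGCATTAAacacaataaag
The matching letters lie at chr16:37115318-37115325 on the minus strand for Stxbp5l, chr7:107547863-107547869 on the plus strand for Syt9 and chr13:110057140-110057146 on the minus strand for Rab3c. Those of Rims2 lie at chr15:39683139-39683145 on the plus strand, and those of Slc17a8 at chr10:89574036-89574042 on the minus strand. A site of any of these kinds was present in 14.18% of the 14027 tested genes with a 3′ UTR, and the 8-base form in 3.479%.

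The knockout label was checked first. Mir155hg, the host transcript of the microRNA, had 5, 3 and 1 reads in MiRNC149, MiRNC640 and MiRNC670, against 57, 66 and 71 in Nf803, Nf809 and Nf827. Totals ran from 13061129 to 16333181 reads per tumour. The 10 Schwann cell markers were present in every tumour, at summed levels of 11066 to 20965 CPM in miR155KO_Nf1KO and 6454 to 7511 CPM in Nf1KO, where CPM is reads per 1000000 of the library after TMM scaling. MiRNC149, Nf803 and Nf827 were female by Xist and Y-linked counts and the other tumours male.

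Synaptic vesicle genes were higher in the tumours without miR-155. Of 39 tested members, 24 rose (edgeR quasi-likelihood test, Benjamini-Hochberg adjusted p under 0.05 over all 15604 genes tested), where 5.22% of all genes tested were called higher, 4.74% lower and 9.96% in either direction. By edgeR 0 members were called lower, and neither of the 2 members with a negative change had an unadjusted p under 0.05. The median log2 fold change of the tested members was 1.55, against 0.01 over all genes tested. DESeq2 called 32 members higher and 0 lower, against 9.54% and 9.44% of all genes. In 33 of the 39 members every miR155KO_Nf1KO tumour was above every Nf1KO tumour and in 0 members was every tumour below, whereas 16.3% of all tested genes lay wholly above and 16.3% wholly below. The edgeR calls depended on which tumours entered the fit. Without MiRNC670, Nf803 or Nf827, edgeR called 0 members and 0 genes in all, while 31, 32 and 33 of the 39 members had an unadjusted p under 0.05, as had 3240 of 16025, 3335 of 16072 and 3265 of 16056 genes in all. DESeq2 called 25, 30 and 31 members higher in these fits, among 915, 1067 and 1055 genes in all, and each of its fits with 1 tumour left out kept the 24 members. Without MiRNC640 edgeR called 4 members higher, where 99 of 16018 genes in all were called higher. Without MiRNC149 it called 15 members and 808 of 16027 genes higher, and without Nf809 30 members and 1183 of 16020 genes. The 40th member, Syt13, a synaptotagmin that does not bind calcium, had 7, 7 and 2 reads against 1, 5 and 0 and was too low to be tested. A count of 0 in Nf827 allows up to 0.2009 CPM for counting error alone.

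**Figure D1:**
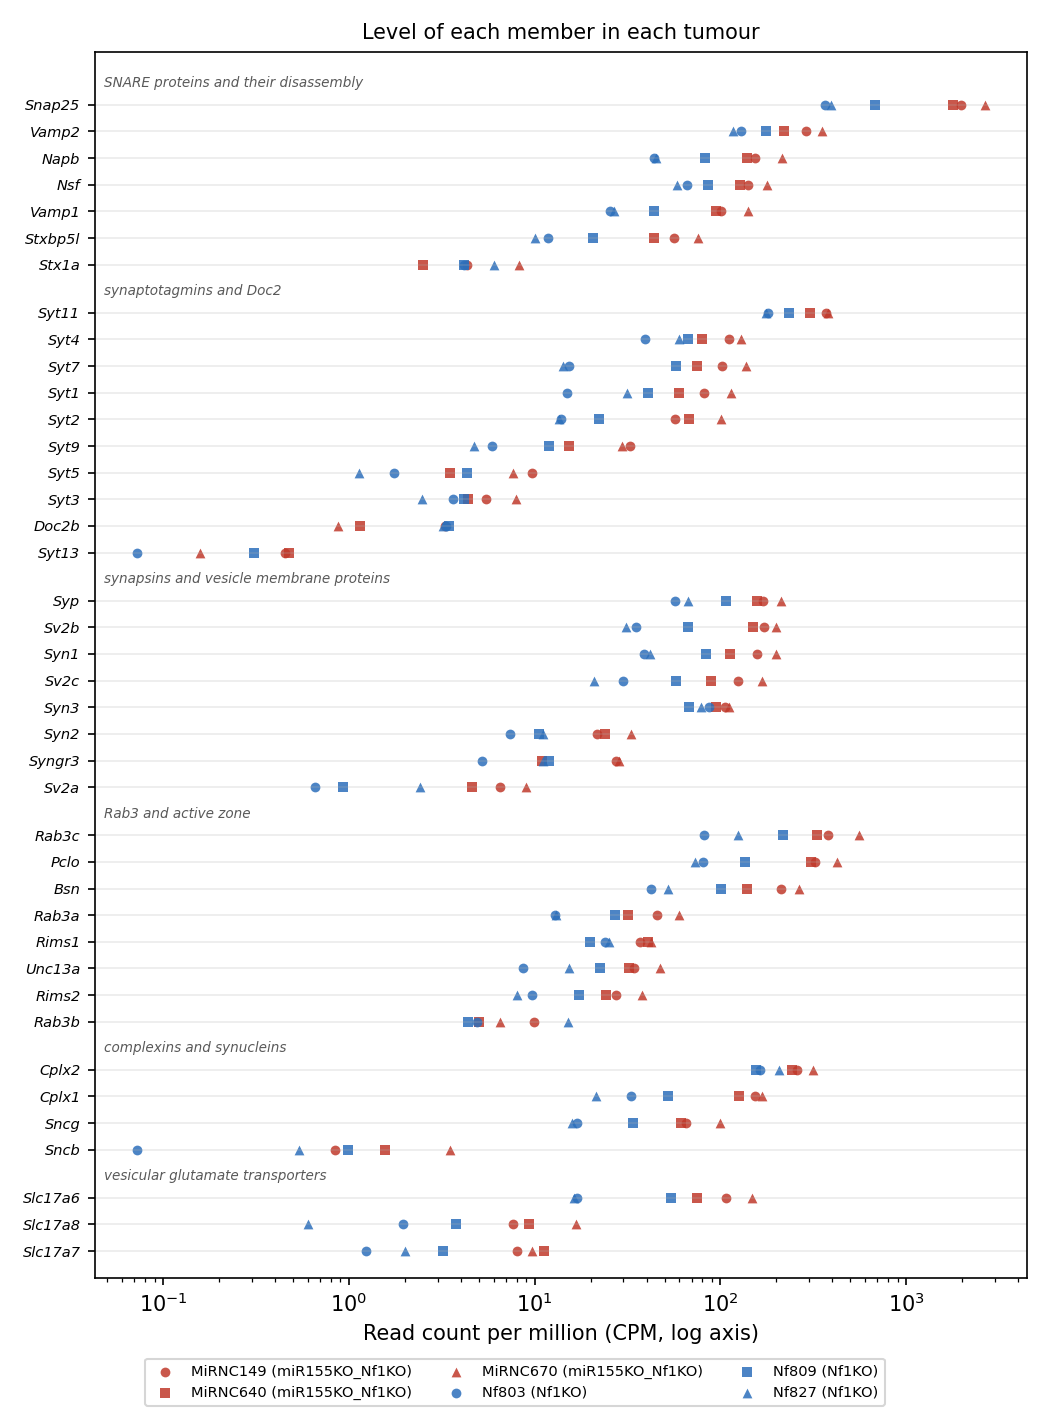
Level of all 40 members in each tumour, in CPM on a log axis, grouped by role. Red points are the miR155KO_Nf1KO tumours and blue points the Nf1KO tumours. In most rows the 3 red points lie to the right of the 3 blue points, with Nf809 the nearest blue point. The Nf827 value of Syt13, which is 0, is not drawn.

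The members kept nearly the same order of tumours. Summed over all 40 genes they reached 5942, 5105 and 7694 CPM in MiRNC149, MiRNC640 and MiRNC670, against 1685, 2786 and 1819 CPM in Nf803, Nf809 and Nf827. Within miR155KO_Nf1KO, MiRNC670 was the highest tumour for 34 of 39 tested members and MiRNC640 the lowest for 32. Within Nf1KO, Nf809 was the highest for 32 of 39, and Nf803 and Nf827 shared the lowest place (17 and 18 members). MiRNC640 and Nf809 were therefore the closest pair of tumours for most members. The ratio between them was 2.64 for Snap25, 1.38 for Slc17a6 and 1.06 for Syt3. MiRNC670 and Nf809 were also the 2 tumours with the most skeletal muscle RNA: 8 muscle markers summed to 206, 405 and 2283 CPM in miR155KO_Nf1KO and to 65.3, 2738 and 6.09 CPM in Nf1KO. The part of muscle RNA in the levels of the members and in the order of the tumours was not tested. With both tumours left out, edgeR called 23 members higher, where 568 of 15753 genes in all were called higher. Of the 24 members of the main fit, 20 were among them, and the median log2 fold change over the 39 tested was 1.71.

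Neuron and Schwann cell markers were also higher in miR155KO_Nf1KO, but within the groups the Schwann cell markers did not follow the order of the members. The 16 neuron markers summed to 4933, 4076 and 6734 CPM in MiRNC149, MiRNC640 and MiRNC670 and to 1182, 2265 and 1042 CPM in Nf803, Nf809 and Nf827. Of them 9 rose and none was at 0 reads in all tumours, and 15 of the 16 had ranges that did not overlap. Of the 10 Schwann cell markers 5 rose and 7 had ranges that did not overlap, with a median log2 fold change of 1.06 against 1.78 for the neuron markers. The Schwann cell markers summed to 11066, 20965 and 14708 CPM in MiRNC149, MiRNC640 and MiRNC670. In Nf803, Nf809 and Nf827 the sums were 7511, 6454 and 6560 CPM. Within its group MiRNC640 was thus highest for these markers and Nf809 lowest, the reverse of their places for most members. Macrophage markers stood the other way, at 245 to 460.0 CPM in miR155KO_Nf1KO and 901 to 1864 CPM in Nf1KO, with 4 of 6 called lower, and fibroblast markers stood at 4452 to 6542 and 11519 to 12679 CPM, with 3 of 6 called lower. Of the 4 motor neuron markers, Slc5a7, the choline transporter, had 16, 31 and 18 reads against 20, 3 and 9 and was not called (log2 fold change 1.03, adjusted p = 0.436). The others were near 0: Mnx1 had no read in any tumour, Chat had 1 read in all and Slc18a3 5, all in Nf827. The 8 markers of sympathetic neurons or chromaffin cells summed to 91.8 CPM in Nf827 and to 32.2 to 44.0 CPM in the other tumours. In Nf827 Dbh, which makes noradrenaline, had 500 reads against at most 7 elsewhere. The 6 adipocyte markers summed to 97.6, 2117 and 580 CPM in MiRNC149, MiRNC640 and MiRNC670. In Nf803, Nf809 and Nf827 they summed to 335, 36.3 and 296 CPM. Their median log2 fold change was 2.16, the ranges overlapped for each of them and 0 were called. In a bulk sample a larger number of neurons or axons and more RNA per neuron cannot be told apart. How far the share of neuronal, Schwann cell, immune, matrix and fat RNA sets the change of the members was not tested.

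**Figure D2:**
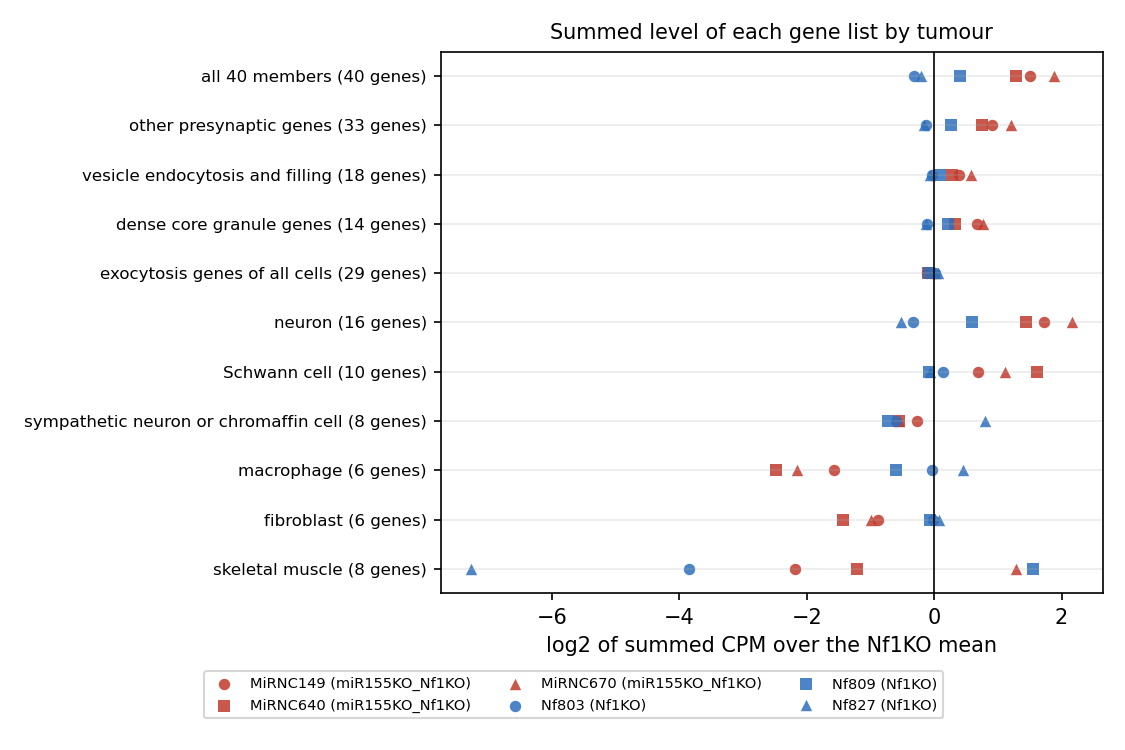
Summed level of each gene list in each tumour, as log2 of its CPM sum over the mean of the Nf1KO tumours. Red points are miR155KO_Nf1KO and blue points Nf1KO. The 40 members, the other presynaptic genes and the neuron markers lie to the right in red, the exocytosis genes of all cells show no gap between groups, and the macrophage and fibroblast markers lie to the left in red.

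In the paragraphs that follow, 3 values in a row are those of MiRNC149, MiRNC640 and MiRNC670, or of Nf803, Nf809 and Nf827, in that order, in CPM. Of the 7 SNARE genes 6 rose, with 1.56 as the median log2 fold change. Snap25 (chromosome 2, 136713453 to 136782428, plus strand), whose protein anchors the SNARE bundle in the plasma membrane, was at 1966, 1787 and 2660 against 367, 676 and 395. The groups were far apart even at their closest tumours, and the log2 fold change was 2.16 (SE 0.28, adjusted p = 0.0194). Per kilobase of exon it was also the most abundant member in both groups, at a mean of 315 RPKM (CPM per kilobase) in miR155KO_Nf1KO and 70.6 in Nf1KO. It made up 33.08% to 35% of all member CPM in the first group and 21.74% to 24.26% in the second, so that its share stood apart as well as its level.

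The 2 synaptobrevin genes encode the vesicle SNARE. Vamp1 (chromosome 6, 125215551 to 125245964), the form of motor and sensory neurons, was at 100.5, 95.0 and 141 against 25.5, 43.6 and 26.8 (log2 fold change 1.81, SE 0.26, adjusted p = 0.0201). Vamp2 (chromosome 11, 69088490 to 69092384), the form of most brain synapses, was at 290.2, 219 and 353 against 128, 176 and 117. Its rise was smaller, with a log2 fold change of 1.03 (SE 0.22, adjusted p = 0.0343), and MiRNC640 lay only 1.24-fold above Nf809. Vamp2 was not called with sex as a covariate. Vamp2 remained the more abundant of the pair in both groups, at 75.5 and 36.9 RPKM against 11.02 and 3.15 RPKM for Vamp1.

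Nsf, the ATPase that pulls spent SNARE bundles apart, was at 140.1, 127 and 177 against 66.1, 85.4 and 58.5 (log2 fold change 1.08, SE 0.19, adjusted p = 0.0254). Napb, which encodes the neuronal adaptor beta-SNAP that recruits NSF, was at 153, 139 and 214 against 44.1, 82.8 and 44.8 (1.56, SE 0.29, adjusted p = 0.0263). Stxbp5l, which encodes tomosyn-2, a syntaxin-binding inhibitor of SNARE assembly, was at 56.5, 44.0 and 75.9 against 11.8, 20.6 and 10.04. Its log2 fold change was 2.05 (SE 0.33, adjusted p = 0.0226), so a negative regulator rose beside the fusion proteins. Stx1a, one of the plasma membrane syntaxins, was low, at 4.31, 2.50 and 8.24 against 4.14, 4.14 and 6.03, and the groups overlapped fully (log2 fold change 0.07, SE 0.46, adjusted p = 0.947). Its sign turned negative in limma voom (-0.11) and without MiRNC670 (-0.51), Nf803 (-0.06), Nf809 (-0.03) or both MiRNC670 and Nf809 (-0.61).

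Of the 9 tested genes of synaptotagmins and Doc2, 4 rose, 7 had ranges that did not overlap and the median log2 fold change was 1.52. Of the fast calcium sensors, Syt2 (chromosome 1, 134646677 to 134762593) was at 57.2, 67.9 and 100.35 against 13.9, 22.1 and 13.5 (log2 fold change 2.19, SE 0.29, adjusted p = 0.0197). Syt1 was at 81.3, 59.8 and 114 against 14.95, 40.8 and 31.2, and with its wider spread it passed narrowly (1.55, SE 0.39, adjusted p = 0.0492). Syt9, another calcium sensor, was at 32.8, 15.3 and 29.5 against 5.88, 12.0 and 4.69 (1.78, SE 0.43, adjusted p = 0.0447). Syt1 was not called with edgeR's robust estimation or with sex as a covariate, and Syt9 not in limma voom or with sex as a covariate.

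Syt11, which does not bind calcium and is also found outside neurons, was the most abundant synaptotagmin, at 370.1, 303 and 377 against 180.4, 233 and 176. It rose by a smaller amount (log2 fold change 0.83, SE 0.16, adjusted p = 0.0263). Syt7, the slow high-affinity sensor, was at 103, 74.4 and 137 against 15.4, 57.3 and 14.1. Nf809 was 3.88-fold above the mean of Nf803 and Nf827, the ranges did not overlap, and the log2 fold change of 1.85 (SE 0.56) did not pass (adjusted p = 0.0822). Syt4, which is linked to large vesicles, was at 112, 79.7 and 129.7 against 39.4, 66.5 and 59.9 and missed the threshold (0.95, SE 0.25, adjusted p = 0.0566). Syt3 and Syt5 stayed at or below 9.72 CPM in every tumour. Neither passed, with adjusted p = 0.2099 for Syt3 (log2 fold change 0.79, SE 0.36) and 0.152 for Syt5 (1.52, SE 0.59). Without Nf809, edgeR also called Syt4, Syt5 and Syt7.

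Doc2b, a calcium sensor of spontaneous release, was the member with the lowest log2 fold change. It was at 3.28, 1.15 and 0.871 against 3.34, 3.46 and 3.21, so that MiRNC640 and MiRNC670 were low while MiRNC149 lay within the Nf1KO range. The log2 fold change was -0.91 (SE 0.55, adjusted p = 0.346). Without MiRNC149 it was -1.70 in edgeR (adjusted p = 0.0709), and DESeq2 then called Doc2b lower.

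**Figure D3:**
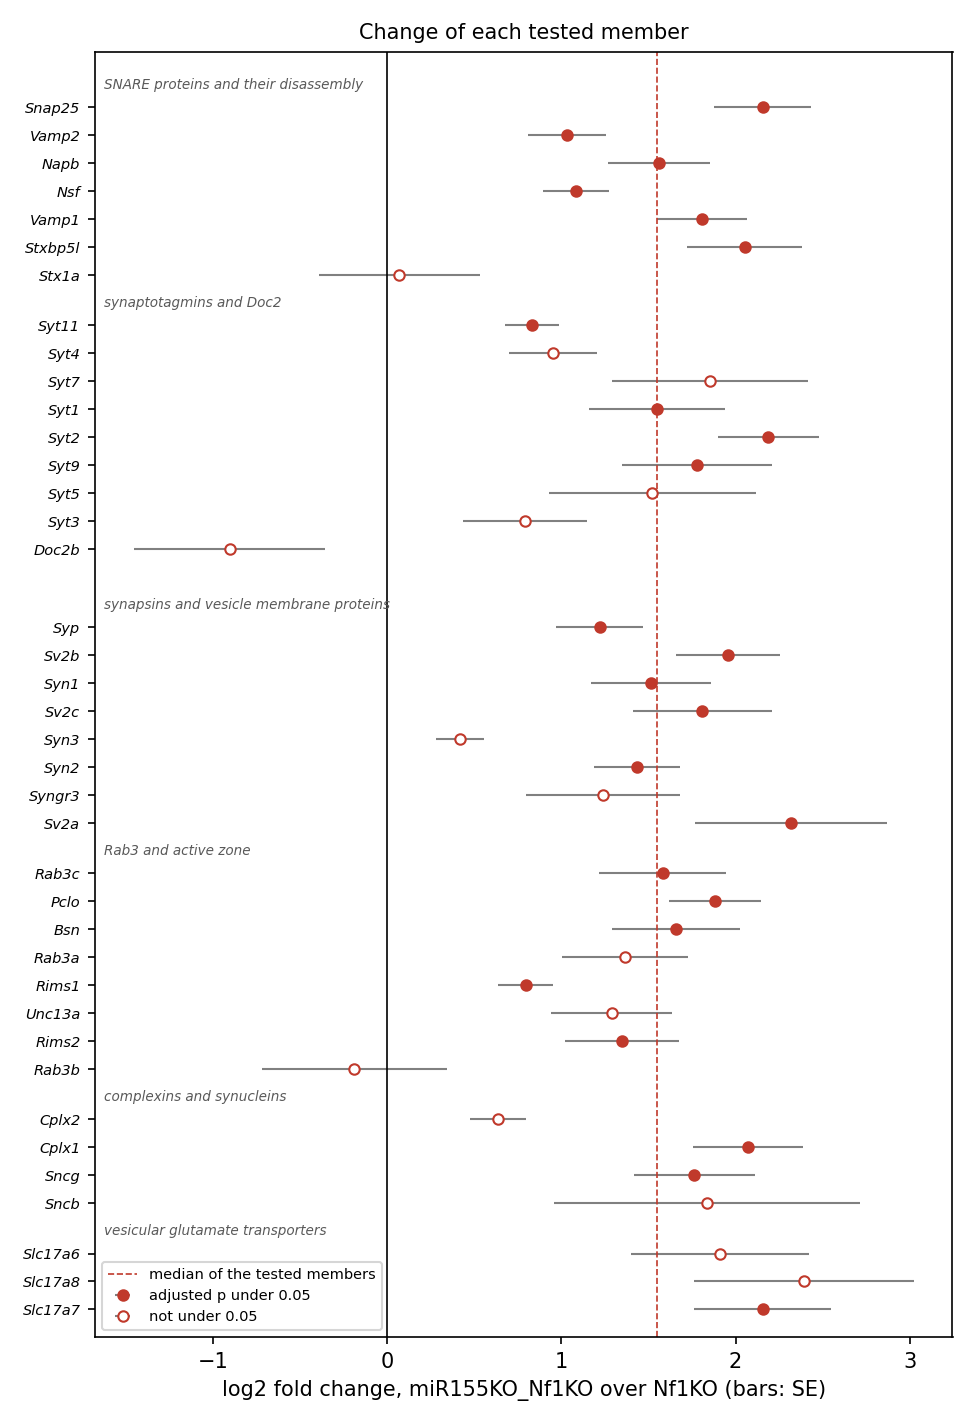
The log2 fold change of each of the 39 tested members, miR155KO_Nf1KO over Nf1KO, with its standard error, grouped by role. Filled points passed an adjusted p of 0.05 and open points did not. The 24 filled points all lie to the right of 0, around the dashed median of 1.55, and the points of Doc2b and Rab3b lie to the left of 0.

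Among the synapsins and vesicle membrane proteins 6 of 8 genes rose. Synapsins coat vesicles and tether them in the reserve pool. Syn1 (chromosome X, 20860511 to 20921004) was at 158, 113 and 199 against 38.8, 84.0 and 41.7 (log2 fold change 1.51, SE 0.34, adjusted p = 0.0390). Syn2 was at 21.7, 24.0 and 32.9 against 7.33, 10.6 and 11.1 (1.44, SE 0.25, adjusted p = 0.0244). Syn3 departed from both, at 106, 94.7 and 111 against 86.6, 67.9 and 78.8, with a log2 fold change of 0.42 (SE 0.14) that did not pass (adjusted p = 0.101). The gene Timp3 lies within Syn3 on the other strand and shares exon positions with it, as Timp4 does with Syn2 and Araf with Syn1, and reads of such pairs cannot be told apart if the counting, whose strand setting is not given here, ignored strand. The same holds for Rab3a with Mpv17l2, Rab3b with 8030443G20Rik, Unc13a with Colgalt1 and Sv2b with 1500012K07Rik.

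Syp (chromosome X, 7638471 to 7653256), which encodes synaptophysin, the classical marker of vesicles, was at 169, 158 and 211 against 57.1, 107 and 66.9 (log2 fold change 1.22, SE 0.25, adjusted p = 0.0304). Syn1 and Syp, both on the X chromosome, were also called with sex as a covariate. The 3 SV2 genes encode vesicle glycoproteins that are also receptors for botulinum toxins, and all 3 rose. Sv2b was at 171, 148.9 and 198 against 35.3, 66.8 and 31.1 (1.96, SE 0.30, adjusted p = 0.0212), and Sv2c at 125, 89.0 and 167 against 30.05, 57.5 and 21.0 (1.81, SE 0.40, adjusted p = 0.0359). Sv2a, the SV2 form common to most synapses, was far lower here, at 6.503, 4.59 and 8.95 against 0.653, 0.927 and 2.41, which is 1.44 and 0.287 RPKM against 20.6 and 5.30 RPKM for Sv2b. Its log2 fold change of 2.32 (SE 0.55, adjusted p = 0.0431) rests on 9, 15 and 36 reads in Nf1KO and was not called with sex as a covariate. Syngr3, a synaptogyrin of vesicles, was at 27.4, 10.9 and 28.4 against 5.23, 11.9 and 11.1, so that MiRNC640 fell within the Nf1KO range (1.24, SE 0.44, adjusted p = 0.125).

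Of the 8 genes of Rab3 proteins and the active zone, 5 rose. Rab3 GTPases bring vesicles to the release site. Rab3c (chromosome 13, 110054187 to 110280996) was the most abundant of them, at 382, 332 and 558 against 82.0, 218 and 125 (log2 fold change 1.58, SE 0.37, adjusted p = 0.0403). Rab3a was at 45.5, 31.9 and 59.6 against 12.9, 27.1 and 13.1 and missed the threshold (1.37, SE 0.36, adjusted p = 0.0573), although the groups did not overlap. Rab3b was at 9.85, 4.998 and 6.49 against 4.86, 4.39 and 15.1, with its highest level in Nf827, the tumour with the Dbh reads (-0.19, SE 0.53, adjusted p = 0.859). Without Nf827 its log2 fold change was 0.62 (adjusted p = 0.426).

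The scaffold genes Bsn and Pclo encode bassoon and piccolo, the largest proteins of the release site. Pclo (chromosome 5, 14514918 to 14863459) was at 325, 309 and 426 against 80.3, 135 and 72.6 (log2 fold change 1.88, SE 0.26, adjusted p = 0.0201). Bsn (chromosome 9, 108096022 to 108190384) was at 212, 139 and 264 against 42.2, 100.45 and 52.1 (1.66, SE 0.37, adjusted p = 0.0371). Of the RIM genes, which link Rab3 to calcium channels, Rims2 was at 27.4, 24.1 and 37.8 against 9.65, 17.3 and 8.03 (1.35, SE 0.33, adjusted p = 0.0453). Rims1 rose less, from 24.0, 19.8 and 25.1 to 36.7, 40.7 and 42.2 (0.80, SE 0.16, adjusted p = 0.0292), and here Nf809 was the lowest tumour of all. Unc13a, which primes vesicles for fusion, was at 34.1, 32.3 and 47.4 against 8.64, 22.6 and 15.3 and was not called (1.29, SE 0.35, adjusted p = 0.0605).

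Of the 4 complexin and synuclein genes, Cplx1 and Sncg rose. Cplx1 (chromosome 5, 108518554 to 108550024), which clamps the SNARE bundle, was at 154, 125 and 168 against 32.8, 52.1 and 21.4 (log2 fold change 2.07, SE 0.32, adjusted p = 0.0212). Cplx2, its close relative, was at 259, 242 and 317 against 164, 154 and 207 and missed the threshold (0.64, SE 0.16, adjusted p = 0.0509). In Nf1KO Cplx2 was the more abundant per length, at 35.6 against 16.2 RPKM, and in miR155KO_Nf1KO Cplx1 was, at 68.0 against 55.3 RPKM. Sncg, the gamma-synuclein of sensory and motor neurons, was at 65.5, 61.1 and 99.6 against 16.8, 33.8 and 15.9 (1.76, SE 0.35, adjusted p = 0.0277). Sncb, the beta form, had 13, 23 and 44 reads against 1, 16 and 8, too few for a narrow estimate (1.84, SE 0.88, adjusted p = 0.235).

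The vesicular glutamate transporters load glutamate into vesicles and tell classes of excitatory neurons apart. Slc17a6, which encodes VGLUT2, the main form of sensory ganglia, was at 107, 74.6 and 148 against 17.0, 54.2 and 16.3. The groups did not overlap, but Nf809 was 3.25-fold above the mean of Nf803 and Nf827, and the log2 fold change of 1.91 (SE 0.51) did not pass (adjusted p = 0.0586). It passed without Nf809, in limma voom and in DESeq2. Slc17a7 (VGLUT1) was lower, at 8.05, 11.3 and 9.66 against 1.23, 3.21 and 2.01, and rose (2.16, SE 0.39, adjusted p = 0.0258). Slc17a8 (VGLUT3), a marker of some touch-sensing neurons, was at 7.60, 9.32 and 16.6 against 1.96, 3.77 and 0.603 (2.39, SE 0.63, adjusted p = 0.0566). Per length, VGLUT2 stood at 20.4 and 5.40 RPKM in the 2 groups, VGLUT1 at 1.79 and 0.399 RPKM and VGLUT3 at 2.37 and 0.447 RPKM.

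Of the 24 members that rose, 4 had a miR-155 site of the kinds searched (Stxbp5l, Syt9, Rab3c and Rims2) and 20 had none, a share near the 14.18% of all tested genes with a 3′ UTR that had a site. The median log2 fold change was 1.78 over the 5 tested members with a site and 1.52 over the 34 without, a difference of values that was not tested. Over all tested genes with a 3′ UTR the medians were 0.05 with a site and 0.00 without.

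Relative to the neuron markers, most members did not stand apart between groups. For each tumour the mean log2 CPM of the 16 markers was subtracted from the log2 CPM of each member, and in 26 of 39 members the ranges of the 2 groups then overlapped. Against this measure of neuronal RNA 0.521% of all genes with reads in every tumour lay wholly above and 73.9% wholly below in miR155KO_Nf1KO. Of the members, 3 lay wholly above: Snap25 (by 0.45 log2 units), Stxbp5l (by 0.35) and Sv2b (by 0.29). For Snap25 the relative values were 4.24, 4.55 and 4.40 against 3.92, 3.69 and 4.22, so MiRNC149 and Nf827 nearly met. A further 10 lay wholly below: Stx1a, Vamp2, Syt3, Syt4, Syt11, Doc2b, Syn1, Syn3, Rab3a and Rims2. The difference between the group means was -2.91 for Doc2b, -1.82 for Stx1a and -0.18 for Syn1. The median distance between groups, without regard to sign, was 0.41 log2 units on this scale. For log2 CPM itself the median difference, taken with its sign, was 1.62. These values are a description, since the neuron markers are themselves higher in miR155KO_Nf1KO.

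**Figure D4:**
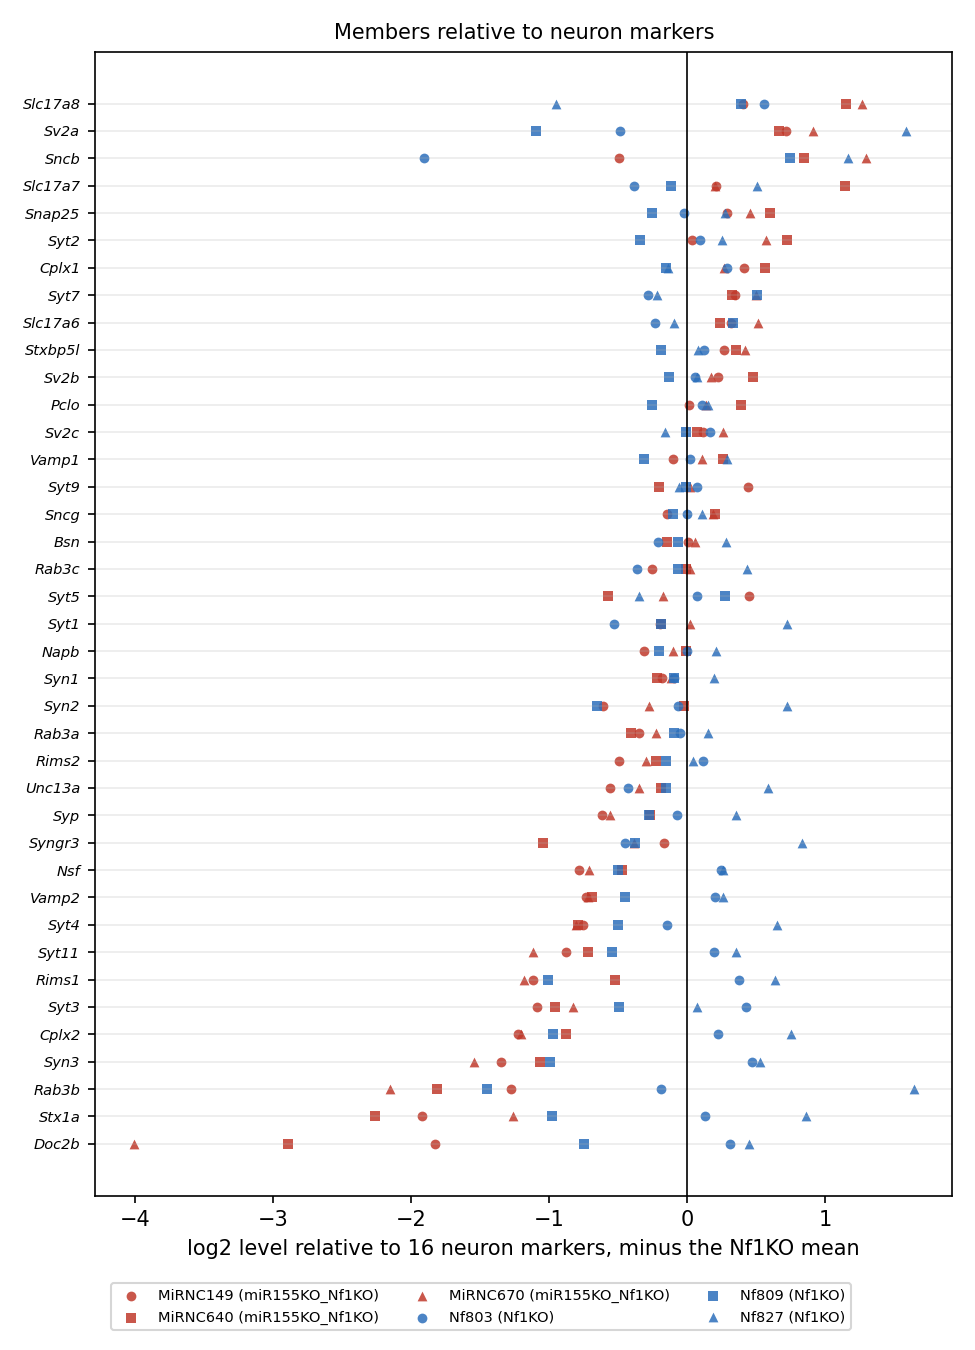
Each member's log2 CPM minus the mean log2 CPM of 16 neuron markers in the same tumour, shown as the distance from the Nf1KO mean, for the 39 members with reads in every tumour. Red points are miR155KO_Nf1KO and blue points Nf1KO, and members are sorted by the difference between the group means. Points of both groups mix near 0 in the middle rows, and the red points of Doc2b and Stx1a lie left of all blue points.

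Further genes of the pathway were counted in 4 lists. Of 28 tested further presynaptic genes, 13 rose and 0 fell by edgeR, with 20 at an unadjusted p under 0.05 and a median log2 fold change of 1.32. Over all genes tested, 4163 of 15604 had an unadjusted p under 0.05, which is the background for this count and the same counts in the lists that follow. Among the presynaptic genes Syngr1, which encodes a synaptogyrin of the vesicle membrane, rose from 21.0 ± 6.65 to 66.5 ± 11.5 CPM (SD, n = 3, log2 fold change 1.66). Of 14 tested genes of vesicle endocytosis and filling, 5 rose and 0 fell by edgeR, with 7 at an unadjusted p under 0.05 and a median of 0.39. Among them were Atp6v1g2, the neuronal proton pump subunit (1.12, SE 0.16), Sh3gl2, which encodes endophilin A1 (1.71, SE 0.25), and Amph, which encodes amphiphysin (1.53, SE 0.27). Dnm1, the neuronal dynamin, had a log2 fold change of -0.38 (SE 0.24, adjusted p = 0.355).

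Dense core granules carry peptides rather than glutamate. Of their 14 genes, 6 rose and 0 fell by edgeR, with 11 at an unadjusted p under 0.05 and a median log2 fold change of 1.43. Chgb, a granin of the granule core, rose from 17.9 ± 4.79 to 57.9 ± 3.71 CPM (log2 fold change 1.69), Ptprn2 by 1.497 and Pcsk1n, an inhibitor of prohormone cleavage, by 2.01. The last list, named exocytosis genes of all cells, holds exocytosis genes not confined to neurons, and not each of them is active in every cell type. It split between both directions: of 29 tested, 14 had a positive and 15 a negative log2 fold change. By edgeR 2 rose and 1 fell, and the median was -0.02. Snap23, the relative of Snap25 in non-neuronal cells, fell by 0.86 on the log2 scale (SE 0.14, adjusted p = 0.0224), from 203 ± 24.7 CPM in Nf1KO to 112 ± 9.95 CPM in miR155KO_Nf1KO (SD, n = 3). Napg, an adaptor of NSF, rose by 0.61 (SE 0.13) and Rab27b, which acts in secretory granules, by 1.83 (SE 0.46). Summed over the list, the level was 1693 to 1841 CPM in miR155KO_Nf1KO and 1732 to 1917 CPM in Nf1KO, so the groups overlapped.

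Since the members rose together, their promoters were searched for motifs known from neuronal genes. RefSeq promoter windows of 300 bases on GRCm38.p6 were found for 30 of the 40 members, with 39 windows in all, and each motif was sought on both strands. The cAMP response element TGACGTCA was in 2.56% of the member windows and 1.79% of all 32851 windows. For RE1, the element of the repressor REST, the left part CAGCACC was in 10.3% against 7.14% and the right part GGACAG in 20.5% against 22.2%. The core of the NRF1 motif, GCATGCGC, was in 5.13% against 2.71%, the GC box GGGCGG in 61.5% against 35.7% and the TATA box TATAAA in 7.69% against 13.6%. The windows of Syn1 and Bsn are printed because they hold the NRF1 core, and Syn1 also the only cAMP response element among the members. Capitals mark matches to the response element, to either part of RE1 and to the NRF1 core. Both genes are on the minus strand, and the windows read in the direction of the gene.
Syn1, chrX:20920869-20921168: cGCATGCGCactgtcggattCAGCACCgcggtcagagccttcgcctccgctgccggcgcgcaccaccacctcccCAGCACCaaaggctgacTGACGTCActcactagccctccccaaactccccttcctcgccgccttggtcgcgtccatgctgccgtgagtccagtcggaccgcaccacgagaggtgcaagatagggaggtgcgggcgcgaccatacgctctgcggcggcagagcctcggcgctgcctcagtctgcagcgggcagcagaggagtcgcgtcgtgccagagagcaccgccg
Bsn, chr9:108190334-108190633: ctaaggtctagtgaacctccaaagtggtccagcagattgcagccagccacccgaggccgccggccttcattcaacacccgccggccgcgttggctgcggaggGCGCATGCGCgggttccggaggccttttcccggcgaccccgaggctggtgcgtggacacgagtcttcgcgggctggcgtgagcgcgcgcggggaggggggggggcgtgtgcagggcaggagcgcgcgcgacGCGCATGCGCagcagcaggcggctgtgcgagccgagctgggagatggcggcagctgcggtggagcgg
In Syn1 the response element covers bases 92 to 99 of the window and the left part of RE1 bases 21 to 27 and 75 to 81. The window holds no exact match to the right part GGACAG. Inexact matches were not searched, so a full RE1 with a changed letter would be missed. Unc13a was the only member with exact matches to both parts. In Bsn the NRF1 core matches on both strands at each of its places, and these matches overlap each other. A match is a description of letters and not of binding.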

How the data were processed

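The values are unscaled counts that the authors deposited as whole numbers, with a row for each gene symbol and a column for each of the 6 tumours. The submitters' processing notes name the tools featureCounts 1.5.2 and HISAT2 2.0.5 and the mouse build mm10. How strand and multiply matching reads were handled, and with which annotation, is not given in the sources used here. Samples were grouped by their titles. The main test was that of edgeR 4.0.16, run in R 4.3.3 (quasi-likelihood test, two-sided, group as the only term) after filterByExpr (minimum count 10, minimum total 15) and TMM scaling, with Benjamini-Hochberg adjustment over 15604 genes and a threshold of 0.05. Standard errors are those implied by the F statistic. RPKM divides CPM by the length of all annotated exons. DESeq2 1.42.0 and limma 3.58.1 were alternatives. Replicate libraries differed by at least 23.17 times Poisson variance, more than counting noise alone, so none was counted as a library deposited again. This says nothing of whether tumours share a mouse.

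The members, lists, motifs and tests were chosen with earlier results of these data known. Values by tumour were planned for called members, the 6 most abundant, members opposite to the median by over 0.5 and the member with the 8-base site, and for the 3 genes of each other list with the smallest p. Values of the other members, Dnm1 and Dbh were added after they were seen. Some genes under the rule are not reported here.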

Additional observations from a re-analysis of the deposited data

How the results depend on the processing

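The number of members called higher, 24, stayed within 1.5 times under the other scalings, filters and tests with all 6 tumours, from 21 with sex as a covariate to 32 with DESeq2, and it was 23 without MiRNC670 and Nf809. Among all genes, 815 of 15604 were called higher in the main fit and 534 of 15604 with sex as a covariate. DESeq2 called 1489 of 15604 higher, and edgeR without MiRNC670 and Nf809 called 568 of 15753. Leaving out 1 tumour at a time, it ran from 0 to 30 with edgeR, and with DESeq2, an alternative chosen after seeing the data, from 25 to 33. Members called lower ran from 0 to 0 with edgeR and from 0 to 1 with DESeq2 when 1 tumour was left out, and were 0 otherwise. The fold changes that changed sign belonged to Stx1a and Rab3b, 2 members near 0 that were never called. Stx1a had -0.1087 in limma voom and -0.6121 without MiRNC670 and Nf809, and ran from -0.5148 to 0.3925 when 1 tumour was left out. Rab3b had 0.0083 in limma voom, 0.1062 with quality weights and 0.1761 with sex as a covariate, and ran from -0.4985 to 0.6186 when 1 tumour was left out. The cause was not tested. Low counts limit Syt13, Sncb, Sv2a and Doc2b. No paired analysis was possible because the groups share no replicate numbers.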
